A study of Mus musculus with 9 samples.

Results

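The miR-23/27/24 miRNAs of mouse skeletal muscle come from a pair of loci, miR-23a/27a/24-2 on chromosome 8 and miR-23b/27b/24-1 on chromosome 13. The members described here are arms of these hairpins, chosen by name. They are mmu-miR-23a-3p, mmu-miR-27a-3p, mmu-miR-27a-5p and mmu-miR-24-2-5p of the chromosome 8 locus, mmu-miR-23b-3p, mmu-miR-27b-3p, mmu-miR-27b-5p and mmu-miR-24-1-5p of the chromosome 13 locus, and mmu-miR-24-3p, which both loci encode and whose reads form 1 pooled value. These are 9 of the 1915 mature miRNAs counted in each library, and all 9 are among the 304 expressed miRNAs, those exceeding 32 counts in 1 or more of the libraries. Of the 9, 8 had more than 32 counts in every library, and the exception was miR-27a-5p, with 30 to 94 counts. The prefix mmu- of mouse miRNAs is left out in the rest of the text, apart from the first value of each member.

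MiRNAs are short RNAs that pair with mRNAs through a seed at their 5′ end and lower the translation or stability of these targets. Each hairpin can yield a 5p and a 3p arm, and the arm that accumulates is usually the active one. In skeletal muscle, miR-23a is known to repress the ubiquitin ligases atrogin-1 (Fbxo32) and MuRF1 (Trim63), which mark proteins for breakdown during atrophy. The miR-27 arms target myostatin, a secreted inhibitor of muscle growth, and miR-27b also targets Pax3, a regulator of muscle progenitors, while miR-24-3p is known to promote myoblast differentiation. The clusters are also known to be active in endothelial cells, so whole muscle mixes several sources.

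Small RNA was sequenced from the tibialis anterior (TA) muscle of 4 control mice (C1 to C4) and 5 tumor-bearing mice (L1, L2, L3, L5 and L6, the LLC group). The mice were males without a genetic modification, given in the sample labels as C57BL/6J aged 10 weeks and in the series text as C57BL/10 aged 8 weeks. LLC mice received 750000 cells of Lewis lung carcinoma, a mouse lung tumor line, under the skin of each flank in PBS, and control mice received PBS alone. Muscles were taken 22 days later, when the LLC group had lost body weight. A further LLC library, L4, did not pass the authors' quality control and was not used here.

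The library totals ranged from 4992339 to 7833161 counts, and the 9 members held 2.08 to 3.80% of them. Levels are given as CPM, the count of a miRNA scaled to a common library total, after TMM, a correction between libraries whose factors ran from 0.762 in L5 and 0.876 in L1 to 1.15. Because L1 and L5 had the lowest factors, values without both are given where they matter. That choice was made after seeing the data and leaves fewer LLC mice, so it is no independent check. The label of skeletal muscle was checked against 4 miRNAs of that tissue. MiR-133a-3p and miR-133b-3p were abundant, miR-1a-3p had only 62 to 171 counts and miR-206-3p only 0 to 3. The summed level of the 4 was 21893 to 30866 CPM in the control group and 20855 to 25260 CPM in the LLC group. Nearly all of this sum came from miR-133a-3p and miR-133b-3p, so the check rests on these arms. Why miR-1a-3p was so low was not tested, and levels here are given as counted. In whole muscle, fewer cells of a type and less RNA per cell cannot be told apart.

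The loci are laid out alike, as the positions show (GRCm38, forward strand). On chromosome 8 the hairpins Mir23a (chr8:84208518-84208592), Mir27a (chr8:84208672-84208758) and Mir24-2 (chr8:84208815-84208921) span 404 bp, with gaps of 79 and 56 bp. They lie between annotated genes, except that the last 2 bases of Mir24-2 overlap the long noncoding RNA gene Gm26532. On chromosome 13 the hairpins Mir23b (chr13:63300484-63300557), Mir27b (chr13:63300712-63300784) and Mir24-1 (chr13:63301208-63301275) span 792 bp, with gaps of 154 and 423 bp. They lie within the protein-coding gene 2010111I01Rik on the same strand, where Mir23b is intronic and Mir27b and Mir24-1 fall within annotated exons, and within introns of Fancc on the opposite strand.

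RefSeq (GRCm38.p6) gave a mature sequence for 8 of the 9 members, all but miR-23b-3p. They are shown, 5′ to 3′, because the pairs between the loci differ in how far sequence can separate them; capitals mark the seed, bases 2 to 8. The first group is the miR-27-3p pair, which shares the seed UCACAGU and differs only by C19U (positions from 1 at the 5′ end, the base of miR-27a-3p first).
miR-27a-3p: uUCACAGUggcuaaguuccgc
miR-27b-3p: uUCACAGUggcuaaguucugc

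The second group is miR-23a-3p, whose seed differs from that of the miR-27-3p pair, and miR-24-3p, whose single mature sequence is read from both chromosomes.
miR-23a-3p: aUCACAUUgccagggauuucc
miR-24-3p: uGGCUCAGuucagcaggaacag

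The third group is the 5p arms. The miR-24 5p arms share the seed UGCCUAC and their first 16 bases, whereas the miR-27 5p arms differ at 8 positions, of which G3A lies in the seed.
miR-24-2-5p: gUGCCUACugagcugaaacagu
miR-24-1-5p: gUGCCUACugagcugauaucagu
miR-27a-5p: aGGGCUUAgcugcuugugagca
miR-27b-5p: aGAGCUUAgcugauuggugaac

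The hairpins of miR-27a, miR-27b, miR-24-2 and miR-24-1 are shown as well, since their 5p arms were compared with the 3p arms, which for miR-24 were counted over both hairpins together; here capitals mark the 5p arm and then the 3p arm.
Mir27a: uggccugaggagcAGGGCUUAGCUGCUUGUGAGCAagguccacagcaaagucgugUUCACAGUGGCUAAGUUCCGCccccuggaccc
Mir27b: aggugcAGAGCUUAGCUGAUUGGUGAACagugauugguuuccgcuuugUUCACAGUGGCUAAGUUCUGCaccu
Mir24-2: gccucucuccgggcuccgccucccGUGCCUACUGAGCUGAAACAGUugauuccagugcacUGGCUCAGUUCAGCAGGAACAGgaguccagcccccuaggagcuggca
Mir24-1: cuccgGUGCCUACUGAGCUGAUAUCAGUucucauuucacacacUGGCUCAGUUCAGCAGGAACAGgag

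The 9 members ran from 5.93 to 32311 CPM over the 9 mice. The mature forms with a sequence are 21 to 23 bases long, so the levels were compared without a length correction. Whether the libraries capture each sequence equally was not tested, so ranks and folds between members are those of counts. MiR-27b-3p, at a mean of 29411 CPM over the 9 mice, ranked 8 of the 304 expressed miRNAs and was 25.7-fold above the next member, miR-27a-3p (1144 CPM, rank 45). MiR-23a-3p followed with 919 CPM (rank 50), miR-23b-3p with 517 CPM (rank 60), miR-24-3p with 336 CPM (rank 73) and miR-24-2-5p with 261 CPM (rank 76). The remaining arms were scarce, with miR-27b-5p at 33.8 CPM (rank 154), miR-24-1-5p at 18.7 CPM (rank 191) and miR-27a-5p at 8.08 CPM (rank 245). Among neighbours in this order, the ranges over the 9 mice overlapped for miR-27a-3p and miR-23a-3p, for miR-23b-3p and miR-24-3p, and for miR-24-3p and miR-24-2-5p. The other neighbours had ranges that did not overlap. Within each mouse the order held in 9 of 9 mice for every pair of neighbours other than miR-24-3p and miR-24-2-5p, where it held in 8.

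**Figure D1:**
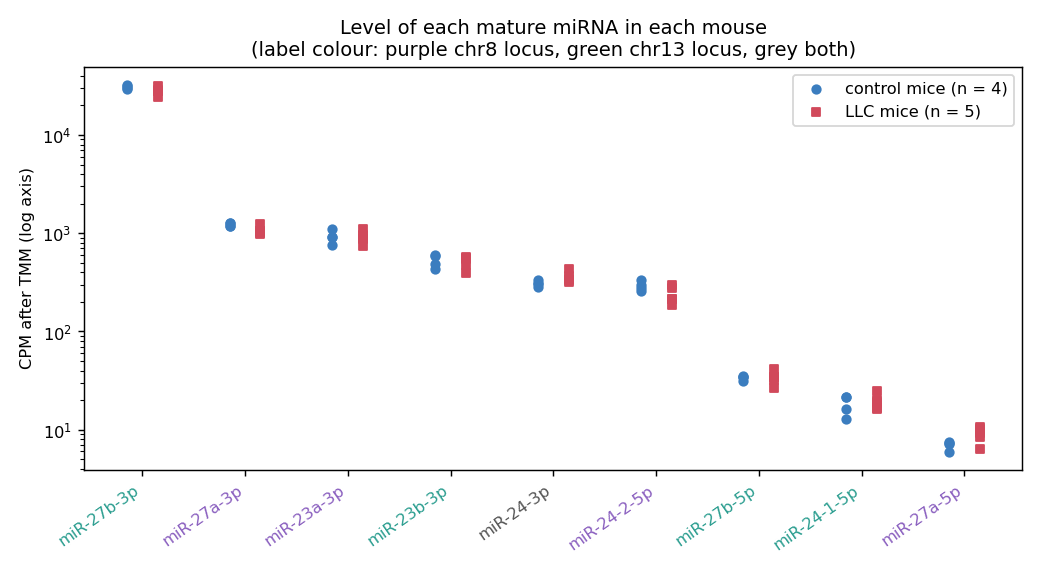
CPM after TMM (log axis) of each of the 9 members in each of the 4 control mice (circles) and 5 LLC mice (squares), ordered by the mean over all mice; label colours give the locus. MiR-27b-3p stands 25.7-fold above the next member, and in every member the control and LLC points overlap.

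The difference in level between the loci rested on miR-27b-3p, which made up 97.6 to 98.4% of the summed CPM of the 4 arms unique to chromosome 13. These 4 arms summed to 30178 to 32951 CPM in the control group and 24731 to 32334 CPM in the LLC group. The 4 arms unique to chromosome 8 summed to 2208 to 2712 CPM in the control group and 1940 to 2664 CPM in the LLC group. The chromosome 8 arms were thus 6.70 to 7.77% of both loci in the control mice and 6.28 to 8.35% in the LLC mice. MiR-23a-3p was the more abundant of its pair, with 61.2 to 65.2% of the miR-23-3p total in the control mice and 61.0 to 66.4% in the LLC mice. For the miR-27-3p pair, the share of miR-27a-3p was only 3.55 to 4.14% and 3.23 to 4.19%. The control and LLC ranges of these shares overlapped. The shares take each read as assigned to the right member of its pair, which was not tested for either pair. Both the shares and the sums also take each sequence as captured equally well, which was not tested either.

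For the comparison of LLC with control, a miRNA was called where the p of edgeR's quasi-likelihood test, after Benjamini-Hochberg adjustment, was 0.05 or lower and the fold change 1.5 or higher in either direction, and no member was called. Over all 304 expressed miRNAs the same rule also called 0 (0.0%), with a smallest adjusted p of 0.0812. At an unadjusted edgeR p of at most 0.05 there were 0 of 9 members, beside 50 of 304 miRNAs (16.4%), and at an unadjusted p of at most 0.1 there were 4 of 9, beside 90 of 304 (29.6%). DESeq2 called 8 of all miRNAs and limma with voom 0, and neither called a member. No member had control and LLC mice that did not overlap, against 18 of 304 miRNAs (5.92%), of which 13 were lower (4.28%) and 5 higher (1.64%) in the LLC mice. The log2-fold change (LLC minus control) was above 0 for 4 members and below 0 for 5, with a median of -0.01, and it was below 0 for 163 of 304 miRNAs (53.6%), with a median of -0.02. The largest absolute log2-fold change was 0.37 among the members and 1.14 among all expressed miRNAs.

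mmu-miR-23a-3p, the repressor of atrogin-1 and MuRF1, differed little between the groups. It had 753 CPM in C1, 918 in C2, 922 in C3 and 1092 in C4. The LLC values were 883 CPM in L1, 1106 in L2, 887 in L3, 970 in L5 and 742 in L6. The groups overlapped almost fully, with L2 just above and L6 just below all control mice. The mean was 921 ± 138 CPM (SD, n = 4) in control mice and 917 ± 133 CPM (SD, n = 5) in LLC mice. The log2-fold change was -0.01 ± 0.13 (SE), with a 95% interval of -0.29 to 0.28 and an adjusted p of 0.995 by edgeR. The interval lies within a fold change of 1.5 in either direction, and the sign turned in 11 of 18 alternative settings.

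mmu-miR-23b-3p, its counterpart on chromosome 13, had 435, 489, 584 and 600 CPM in C1 to C4. Among LLC mice it was 477 CPM in L1, 559 in L2, 567 in L3, 547 in L5 and 395 in L6. Only L6 lay outside the control range, below it. The mean was 527 ± 78.2 CPM (SD, n = 4) in control mice and 509 ± 72.9 CPM (SD, n = 5) in LLC mice, a log2-fold change of -0.05 ± 0.13 (SE; 95% interval -0.34 to 0.24; adjusted p = 0.835 by edgeR).

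mmu-miR-27a-3p, the myostatin-targeting arm of chromosome 8, had the smallest exact p of the members. It had 1186, 1279, 1191 and 1282 CPM in C1 to C4. In the LLC mice it had 1061 CPM in L1, 1252 in L2, 1058 in L3, 1008 in L5 and 976 in L6. The control mice lay close together, 4 of the 5 LLC mice lay below all of them, and L2 lay among them. The mean was 1234 ± 53.1 CPM (SD, n = 4) against 1071 ± 107 CPM (SD, n = 5). The log2-fold change was -0.20 ± 0.10 (SE; 95% interval -0.43 to 0.02), with an unadjusted p of 0.0693 and an adjusted p of 0.296 by edgeR; over the 18 alternatives the adjusted p was 0.158 to 0.827. A two-sided exact permutation test of log2 CPM gave p = 0.0317, or 0.357 adjusted over the 304 miRNAs. MiR-27a-3p was the only 1 of the 9 members at an exact p of at most 0.05, a level that 38 of 304 miRNAs (12.5%) reached. The smallest p that 4 against 5 mice allow is 0.00794. Without L1 and L5 the log2-fold change was -0.14 (adjusted p = 0.827).

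mmu-miR-27b-3p, the most abundant member, had 30258 CPM in C1, 29641 in C2, 32311 in C3 and 31530 in C4. The LLC values were 31798 CPM in L1, 28611 in L2, 28050 in L3, 24139 in L5 and 28360 in L6. Here too 4 of the 5 LLC mice lay below all control mice, but the exception was L1 and not L2. The mean was 30935 ± 1209 CPM (SD, n = 4) against 28191 ± 2723 CPM (SD, n = 5), with the lowest value in L5. The log2-fold change was -0.13 ± 0.13 (SE; 95% interval -0.41 to 0.14; adjusted p = 0.565 by edgeR), and the two-sided exact permutation test gave p = 0.103. With library totals alone in place of TMM the exact permutation p was 0.0476 at a log2 difference of -0.29, a scaling that moved the median over all 304 from -0.02 to -0.17.

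**Figure D2:**
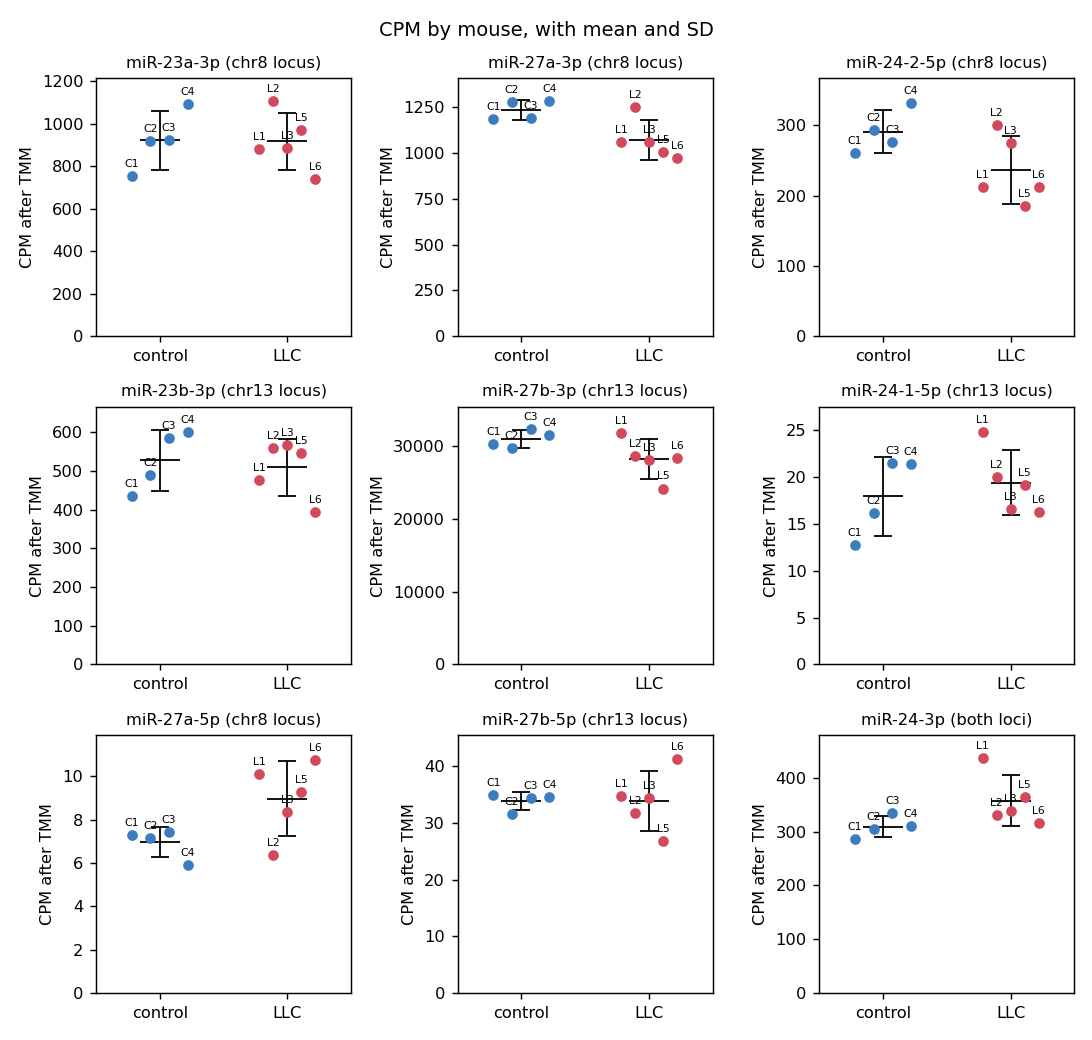
CPM after TMM (linear axes from 0) of each member in each mouse, with 1 panel per member; points are mice and the black marks give the mean and SD of the 4 control and 5 LLC mice. MiR-27a-3p has 4 LLC mice below all control mice and L2 among them, while miR-23a-3p and miR-23b-3p overlap almost fully.

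The 5p arms of miR-27 were scarce, and their targets in muscle are less well known. mmu-miR-27a-5p had 7.31, 7.15, 7.44 and 5.93 CPM in C1 to C4. Among LLC mice it was 10.1 CPM in L1, 6.35 in L2, 8.37 in L3, 9.28 in L5 and 10.8 in L6. As for its 3p arm, 4 of the 5 LLC mice lay outside the control range and L2 lay within it, but for this arm they lay above. The mean was 6.96 ± 0.697 CPM (SD, n = 4) against 8.98 ± 1.73 CPM (SD, n = 5), a log2-fold change of 0.37 ± 0.20 (SE; 95% interval -0.06 to 0.79; adjusted p = 0.326 by edgeR). These values rest on 30 to 94 counts per library, the lowest of the members, so their relative counting error is the highest.

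mmu-miR-27b-5p had 34.9, 31.5, 34.4 and 34.6 CPM in C1 to C4. In the LLC mice it had 34.8 CPM in L1, 31.8 in L2, 34.4 in L3, 26.8 in L5 and 41.4 in L6. The LLC mice lay on both sides of the narrow control range, with L5 below and L6 above it. The means were 33.8 ± 1.57 CPM (SD, n = 4) and 33.8 ± 5.28 CPM (SD, n = 5), a log2-fold change of 0.00 ± 0.14 (SE; 95% interval -0.30 to 0.31; adjusted p = 0.996 by edgeR).

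mmu-miR-24-3p, the arm shared by both loci and linked to myoblast differentiation, had 287, 305, 334 and 310 CPM in C1 to C4. The LLC values were 436 CPM in L1, 331 in L2, 339 in L3, 365 in L5 and 317 in L6. L1, L3 and L5 lay above all control mice, L1 by the most, and L2 and L6 lay within the control range. The mean was 309 ± 19.6 CPM (SD, n = 4) against 358 ± 47.3 CPM (SD, n = 5). The log2-fold change was 0.21 ± 0.12 (SE; 95% interval -0.04 to 0.46; adjusted p = 0.328 by edgeR), and it was 0.12 without L1 and L5. A two-sided exact permutation test gave p = 0.0556 at a log2 difference of 0.20, and with library totals alone p = 0.627 at 0.049. Without L1 alone the log2-fold change was 0.13. As the mature sequence is the same from chromosomes 8 and 13, its origin cannot be told apart.

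The 5p arms of miR-24 differ between the loci after their shared first 16 bases. mmu-miR-24-2-5p, from chromosome 8, had 261, 294, 277 and 332 CPM in C1 to C4. Among LLC mice it was 213 CPM in L1, 301 in L2, 275 in L3, 185 in L5 and 212 in L6. L1, L5 and L6 lay below all control mice, and L2 and L3 lay among them. The mean was 291 ± 30.6 CPM (SD, n = 4) against 237 ± 48.5 CPM (SD, n = 5), a log2-fold change of -0.30 ± 0.14 (SE; 95% interval -0.60 to 0.01; adjusted p = 0.296 by edgeR, and 0.156 to 0.880 over the alternatives). Without L1 and L5 the log2-fold change was -0.12.

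mmu-miR-24-1-5p, from chromosome 13, had 12.7, 16.2, 21.4 and 21.3 CPM in C1 to C4. In the LLC mice it had 24.8 CPM in L1, 20.0 in L2, 16.6 in L3, 19.1 in L5 and 16.3 in L6. Only L1 lay outside the control range, above it. The mean was 17.9 ± 4.24 CPM (SD, n = 4) against 19.4 ± 3.44 CPM (SD, n = 5), a log2-fold change of 0.12 ± 0.19 (SE; 95% interval -0.29 to 0.52; adjusted p = 0.744 by edgeR). The log2-fold change was 0.020 without L1 and L5, and its sign turned with library totals alone, to -0.03.

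**Figure D3:**
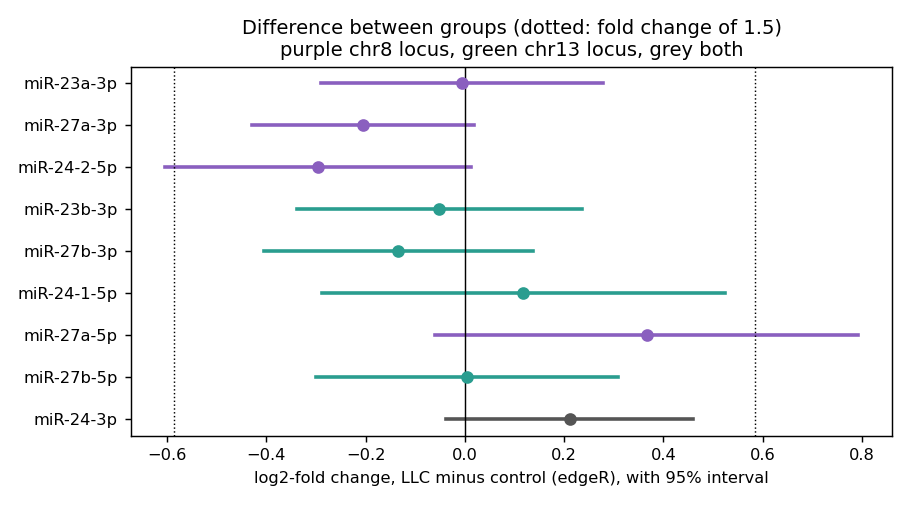
Log2-fold change (LLC minus control, edgeR) of each member with its 95% interval; colours give the locus and dotted lines mark a fold change of 1.5. All 9 intervals include 0, the points run from -0.30 for miR-24-2-5p to 0.37 for miR-27a-5p, and only these members have intervals that reach past a fold change of 1.5.

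Ratios of members within a library do not depend on the scaling between libraries, so the loci were compared by 10 such ratios, each tested by two-sided exact permutation over the 9 mice on the log2 scale. Of the 10, 4 set a chromosome 8 arm against its chromosome 13 counterpart, 4 set a 5p arm against the 3p arm of the same name and 2 set neighbours of a locus against each other. For miR-24 the 3p arm is the value pooled over both loci, so its ratios are not those of a single hairpin. At an unadjusted p of at most 0.05 there was 1 of 10 ratios, and after Benjamini-Hochberg adjustment over the 10 there was 0, with a smallest adjusted p of 0.218. All 10 ratios had control and LLC values that overlapped.

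Between the loci, the ratios of the main 3p arms spanned nearly the same range in both groups. The ratio of miR-23a-3p to miR-23b-3p was 1.58 to 1.88 in the control mice and 1.57 to 1.98 in the LLC mice. The log2 difference (LLC minus control) was 0.05, with a 95% interval of -0.14 to 0.22 and an exact permutation p of 0.556. The level of miR-27a-3p was 3.69 to 4.31% of that of miR-27b-3p in the control mice and 3.34 to 4.37% in the LLC mice, a log2 difference of -0.07 (95% interval -0.31 to 0.18; exact permutation p = 0.476). For the counts as assigned, these intervals bound the differences between loci for the abundant arms to less than a fold change of 1.5 in either direction. Whether reads were assigned to the right member of each pair was not tested, so the bound may not hold for the loci themselves.

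The 5p arms gave wider intervals between the loci. The count of miR-27a-5p was 20.9, 22.7, 21.6 and 17.1% of that of miR-27b-5p in C1 to C4. The LLC values were 29.1% in L1, 20.0% in L2, 24.3% in L3, 34.6% in L5 and 26.0% in L6. All LLC mice other than L2 lay above the control mice. The log2 difference was 0.36 (95% interval -0.04 to 0.73; exact permutation p = 0.0794, adjusted p = 0.218), and it was 0.18 without L1 and L5.

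The ratio of miR-24-2-5p to miR-24-1-5p, which compares the loci where their shared 3p arm cannot, was 20.5, 18.2, 12.9 and 15.6 in C1 to C4. Among LLC mice it was 8.56 in L1, 15.0 in L2, 16.6 in L3, 9.66 in L5 and 13.0 in L6. Only L1 and L5 lay below all control mice. The log2 difference was -0.44 (95% interval -1.08 to 0.18; exact permutation p = 0.119, adjusted p = 0.238), and it was -0.16 without L1 and L5. No difference was detected, and the interval reaches further below 0 than above it.

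Between arms, the ratio with the smallest p was that of miR-24-2-5p to miR-24-3p, the latter pooled over both loci. Reads of miR-24-3p may not be fully separated from those of miR-3074-5p on the opposite strand, as described below. The effect on the ratios to miR-24-3p was not tested. The ratio of miR-24-2-5p to miR-24-3p is given first. This ratio was 0.910, 0.964, 0.827 and 1.07 in C1 to C4. In the LLC mice it was 0.487 in L1, 0.907 in L2, 0.811 in L3, 0.507 in L5 and 0.669 in L6. L2 lay among the control mice, L3 just below them, and L1 and L5 lowest. The log2 difference was -0.52 (95% interval -1.07 to -0.01), with an exact permutation p of 0.0476 and an adjusted p of 0.218. The unadjusted p was above 0.05 in 10 of 13 alternatives, 8 of which left out a single library, and without L1 and L5 the log2 difference was -0.25 (exact permutation p = 0.114). Of the 10, the replicate block (a sign-flip test over replicate numbers 1, 2 and 3) gave 0.25, the smallest p it allows. Leaving out libraries also leaves fewer splits to test.

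For miR-27a, the arms were compared in the same way. The count of miR-27a-5p was 0.462 to 0.624% of that of miR-27a-3p in the control mice. The LLC values were 0.955% in L1, 0.508% in L2, 0.791% in L3, 0.920% in L5 and 1.10% in L6. All LLC mice other than L2 lay above the control mice, with a log2 difference of 0.56 (95% interval -0.06 to 1.01; exact permutation p = 0.0556, adjusted p = 0.218), and it was 0.44 without L1 and L5. On chromosome 13, the count of miR-27b-5p was 0.106 to 0.115% of that of miR-27b-3p in the control mice and 0.109 to 0.146% in the LLC mice, a log2 difference of 0.13 (95% interval -0.07 to 0.38; exact permutation p = 0.222). Whether the arm ratios differ in their response between the loci was not tested beyond the ratios given here.

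The other ratios had intervals that included 0. MiR-24-1-5p was 4.44 to 6.88% of miR-24-3p in the control mice and 4.90 to 6.05% in the LLC mice, a log2 difference of -0.08 (95% interval -0.38 to 0.25; exact permutation p = 0.603). The ratio of miR-27a-3p to its neighbour miR-23a-3p was 1.17 to 1.58 in the control mice and 1.04 to 1.32 in the LLC mice, with a log2 difference of -0.20 (95% interval -0.45 to 0.02; exact permutation p = 0.0873). The ratio of miR-27b-3p to miR-23b-3p was 52.5 to 69.5 and 44.1 to 71.8, with a log2 difference of -0.09 (95% interval -0.47 to 0.37; exact permutation p = 0.627).

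**Figure D4:**
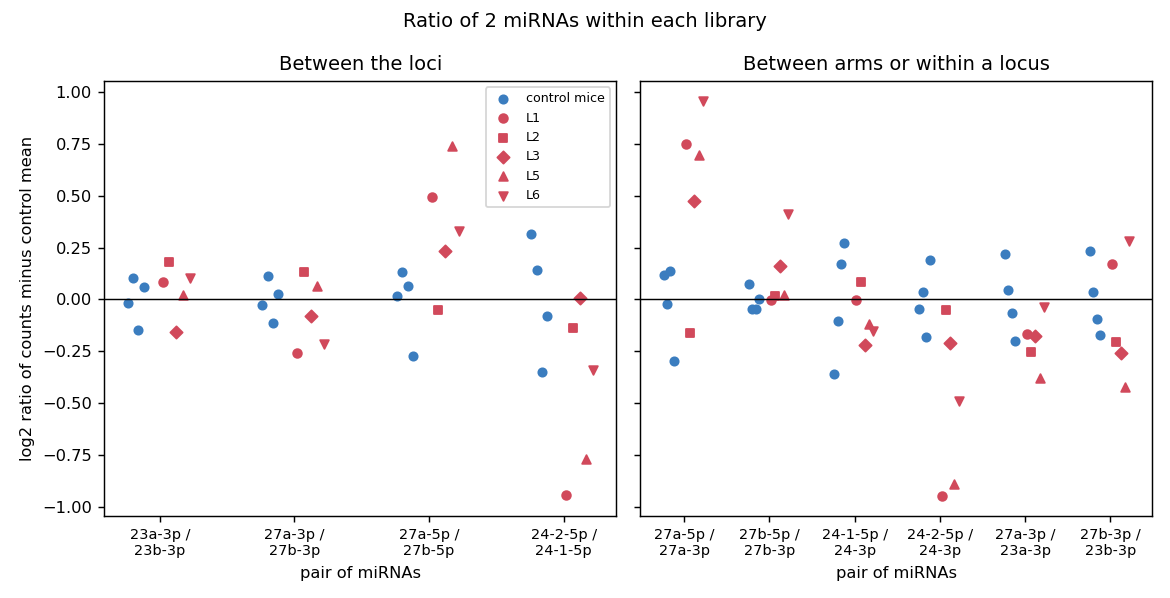
Log2 ratio of the counts of 2 members within each library, minus the mean of the 4 control mice, for the 4 ratios between loci (left) and the 6 ratios between arms or within a locus (right; miR-24-3p is pooled over both loci); circles in blue are control mice and red symbols are the 5 LLC mice. L1 and L5 lie lowest for miR-24-2-5p to miR-24-1-5p and to miR-24-3p, and every ratio overlaps between the groups.

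The members did not move as 1 block across mice. In C3, 8 of the 9 members lay above their own mean over the 9 mice, and in C4 7 did, whereas in L6 7 of the 9 lay below it. In the other mice 4 or 5 lay above. The coefficient of variation of the members was 3.91 to 23.7% in the control group and 9.66 to 20.5% in the LLC group. The extremes of the control group were miR-27b-3p, which was the least variable, and miR-24-1-5p, which was the most.

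The pattern over the 9 mice was also compared by the mean absolute difference of Z-scored log2 CPM, as a description. For miR-23a-3p the nearest expressed miRNAs outside the loci were miR-125a-5p (0.372) and miR-337-5p (0.419), and its counterpart miR-23b-3p was at 0.436. For miR-27a-3p they were miR-674-5p (0.239) and miR-744-3p (0.334), and its neighbour miR-24-2-5p was at 0.381. For miR-24-3p they were miR-324-5p (0.319) and miR-3057-5p (0.394), for miR-23b-3p miR-361-5p (0.261) and miR-872-3p (0.330), and for miR-27b-3p miR-411-5p (0.427) and miR-592-5p (0.445). No counterpart or neighbour of the loci was nearer to these arms than the miRNAs named. Those are the nearest 2 of all expressed miRNAs outside the loci, a far larger pool than the members. The order therefore does not show whether members of a locus vary together.

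The remaining arms of the hairpins were close to the floor of the libraries. MiR-23a-5p had 0 to 5 counts and miR-23b-5p 1 to 2 counts per library, and neither was tested. On the opposite strand, the mature miR-3074-5p overlaps miR-24-3p by 20 bases at both loci and had 481 to 1199 counts. Its count was 30.7 to 35.4% of that of miR-24-3p in the control mice and 25.0 to 43.4% in the LLC mice. It had 104 ± 8.16 CPM (SD, n = 4) in control mice and 132 ± 32.1 CPM (SD, n = 5) in LLC mice, with a log2-fold change of 0.34 ± 0.17 (SE; adjusted p = 0.296 by edgeR). The sources used here name no strand setting, so reads of miR-24-3p and miR-3074-5p may not be fully separated. Its partners miR-3074-1-3p and miR-3074-2-3p had 2 to 14 and 3 to 12 counts.

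The pathway was widened to a list of 24 other miRNAs linked to muscle size, of which 22 were expressed. None was called, 14 had a log2-fold change above 0 and 8 below, and the median was 0.14, beside -0.02 over all 304. At an unadjusted edgeR p of at most 0.05, 2 were higher in the LLC group and 1 was lower, 3 of 22 beside 50 of 304 miRNAs (16.4%). The higher ones were miR-29b-3p, known to promote atrophy, with 46.2 ± 1.82 against 77.0 ± 20.1 CPM (log2-fold change 0.73 ± 0.18, SE; adjusted p = 0.0812 by edgeR), and miR-146b-5p, a regulator of inflammatory signalling, with 4.20 ± 0.625 against 8.16 ± 4.11 CPM (log2-fold change 0.94 ± 0.34, SE; adjusted p = 0.214 by edgeR). The lower was miR-322-5p, which promotes cell cycle exit of myoblasts, with 434 ± 58.2 against 351 ± 63.5 CPM (log2-fold change -0.31 ± 0.14, SE; adjusted p = 0.296 by edgeR). MiR-133a-3p, which is enriched in muscle, had 20321 ± 3384 against 18718 ± 1381 CPM, a log2-fold change of -0.12.

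Markers of other cell types that TA muscle holds were summed beside the members. The endothelial list (miR-126a-3p and miR-126a-5p) had log2-fold changes below 0 for 2 of 2, with sums of 26211 to 33929 CPM in the control group and 24162 to 29972 CPM in the LLC group, and the more abundant miR-126a-5p had a log2-fold change of -0.09 (adjusted p = 0.721 by edgeR) and miR-126a-3p of -0.31 (adjusted p = 0.284 by edgeR). The erythroid list (miR-451a, miR-144-3p and miR-144-5p) was below 0 for 3 of 3, with log2-fold changes of -0.83 to -0.73. Its sums were 215 to 325 CPM in the control group and 92.4 to 220 CPM in the LLC group. All 3 had an unadjusted edgeR p of at most 0.05, beside 50 of 304 miRNAs (16.4%), and adjusted edgeR p of 0.100 to 0.214. From the other lists, miR-126a-3p, miR-150-5p, miR-223-3p and miR-199a-5p also reached that unadjusted level. The arms of miR-144, like those of miR-126a, are a 5p and a 3p arm of the same name, so the markers are not all independent. The leukocyte list was above 0 for 4 of 5, yet its sum was 691 to 800 CPM in the control group and 583 to 742 CPM in the LLC group, since its most abundant miRNA, miR-150-5p, was the one below 0 (492 ± 43.8 against 377 ± 23.1 CPM, log2-fold change -0.38, adjusted p = 0.100 by edgeR). The neutrophil-enriched miR-223-3p of the same list had the highest log2-fold change, 0.70 (20.8 ± 1.89 against 33.9 ± 8.31 CPM, adjusted p = 0.0936 by edgeR). The fibroblast list (miR-199a-3p, miR-199a-5p and miR-214-3p) was above 0 for 1 of 3, with sums of 1939 to 2371 CPM and 1759 to 3300 CPM. The smooth muscle list was above 0 for 1 of 2, with sums of 49377 to 65094 CPM and 50948 to 94775 CPM. No expressed marker was at 0 in these libraries. The part of these cell types in the values of the members was not tested.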

How the data were processed

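Small RNA libraries (TruSeq, single-end, total RNA of TA muscle) of 4 control and 5 LLC mice were used, each from a separate mouse. The authors mapped the reads with Bowtie to the mature sequences of miRBase 21, with a seed of 8 bases and 0 mismatches, and kept all best alignments; the submitters' processing notes also name FastQC, HTSeq and DESeq2. The deposited values are raw counts of reads per mature miRNA in each library, without normalization. As miR-27a-3p and miR-27b-3p differ outside this seed, some reads may have been assigned to the other member. How many was not tested. MiR-27b-3p had 122285 to 247386 counts and miR-27a-3p 5107 to 9655, so a small share of the former could make up much of the latter. The Mir23b hairpin holds a stretch nearly identical to miR-23a-3p, so reads of miR-23a-3p and miR-23b-3p may also not be fully separated. The strand setting is not given in the sources used here.

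The members and lists were chosen with earlier results of these data known. The quasi-likelihood test of edgeR 4.0.16 (TMM scaling, R 4.3.3) was fitted to the 304 miRNAs that exceeded 32 counts in any library, and p-values were adjusted over all of them. The SE of a log2-fold change was derived as its absolute value over the root of the F statistic. Its 95% interval used a t distribution, and neither is a direct output of edgeR. CPM per mouse are after TMM. Exact permutation tests used log2 CPM with a prior count of 2, and ratios had 0.5 added to each count; their 95% intervals come from inverting the permutation test in steps of 0.01. Both tests were checked on simulated data. Total counts per library were 4992339 to 7833161, and the 3 counts taken as floor correspond to 0.383 to 0.601 CPM before TMM.

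The miRNAs named are the 9 members, the other arms of their hairpins, the overlapping miR-3074 arms, up to 6 of the muscle size list, the marker lists, and for 5 members the 2 miRNAs with the nearest pattern. As alternatives, TMM was replaced by RLE factors, by plain totals, or by totals leaving out the 5 top miRNAs, and other settings were no filter, at least 10 counts in every library, DESeq2 1.42.0, limma 3.58.1 with voom, a replicate block, other thresholds, other added counts, and leaving out each library. Leaving out L1 and L5 together was added after seeing the data. Sequences are from RefSeq and gene positions from GENCODE M21, both on GRCm38.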

Additional observations from a re-analysis of the deposited data

How the results depend on the processing

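No member was called under any of the 18 alternatives, and 140 of the 162 values of the 9 members kept their sign. The number of all miRNAs called was 0, but 22 without a filter, 8 with DESeq2, 22 with an unadjusted p and 1 without L1 and L5; it was 0 to 8 with each library left out, the highest without L3 and 1 without L1. The log2-fold change of miR-23a-3p turned to 0.035 with RLE factors and with DESeq2, 0.031 with no filter, 0.010 with at least 10 counts in every library and 0.017 without L1 and L5. That of miR-27b-5p turned to -0.12 with library totals alone and to -0.018 with totals without the 5 most abundant miRNAs, and that of miR-24-1-5p to -0.028 with library totals alone in edgeR and to -0.026 in log2 CPM. With each library left out, the log2-fold change was -0.090 to 0.10 for miR-23a-3p, -0.13 to 0.044 for miR-23b-3p, -0.057 to 0.076 for miR-27b-5p and -0.018 to 0.23 for miR-24-1-5p.

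With each library left out, the log2 difference of the ratio of miR-23a-3p to miR-23b-3p was -0.0023 (without C3) to 0.097, and that of miR-24-1-5p to miR-24-3p -0.19 to 0.017. For miR-27a-5p to miR-27b-5p it was 0.26 to 0.46, with an exact permutation p of 0.0286 without L2, the smallest that 4 against 4 mice can give. The exact permutation p was also 0.0286 for miR-27a-5p to miR-27a-3p without L2 (0.73) and was 0.0357 for miR-27a-3p to miR-23a-3p without C4 (-0.27). The cause of these changes was not tested.

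Control and LLC mice with the same replicate number are different animals, and their deviations did not go together (correlations of -0.23, -0.09 and -0.25 for numbers 1, 2 and 3). With the replicate block 0 miRNAs were called, and the log2-fold change turned to 0.15 for miR-23a-3p and to 0.093 for miR-23b-3p, and the log2 difference of miR-24-1-5p to miR-24-3p to 0.052. C4, L5 and L6 have no partner of the same number, so these values rest on numbers 1, 2 and 3 alone. Depth limits miR-27a-5p the most, at 30 to 94 counts.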
